A study of Mus musculus with 384 samples.

Results

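Gfi1, Gfi1b, Zeb2, Id1, Id2, Id3, Egr1, Egr2, Bcl6 and Nfil3 are 10 transcriptional repressors and fate regulators followed here through single granulocyte/macrophage progenitors (GMPs). All 10 matched 1 Ensembl row each among 46078 gene rows. GMPs are marrow progenitors of neutrophils, monocytes and macrophages, and the labels describe them as lin-, c-kit+, sca-1-, cd34+ and fcgr+. The BCR-ABL cells came from C57Bl/6 mice carrying Scl-tTA::TRE-BCR/ABL, in which a transactivator under an Scl regulatory element drives the fusion oncogene of chronic myeloid leukaemia once doxycycline is removed. These mice were bred on doxycycline at 20 mg per L of drinking water, which was withdrawn at 5 weeks of age, and marrow was taken 5 to 6 weeks after induction. The Control cells came from C57Bl/6 mice that the labels name only control. The protocol text is shared by all sets and names doxycycline and its withdrawal for the BCR-ABL mice only. It does not say whether Control mice had doxycycline, and an interval counted from induction does not give their age. Marrow was crushed from several bones or flushed from leg bones, and which set had which is not stated.

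GFI1 and its close relative GFI1B are zinc-finger repressors that bind DNA at an AATC core and recruit the LSD1 and CoREST complex. GFI1 is needed for neutrophil formation and opposes the monocyte factor IRF8, while GFI1B serves erythroid and megakaryocyte cells. ZEB2 is an E-box repressor with roles in stem cell differentiation and in monocyte and dendritic lineages. ID proteins lack a DNA-binding domain and hold E proteins such as TCF3 and TCF4 off DNA. EGR1 and EGR2 are induced by growth signals through serum response factor and favour macrophage genes over neutrophil genes. BCL6 and NFIL3 are repressors best known from lymphocytes, and NFIL3 competes for its sites with DBP, TEF and HLF.

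RNA was read with SMART-seq2 in 384 wells, 96 per set, of which 323 had at least 50000 gene reads and 1000 detected genes. BCR-ABL replicates 1, 2 and 4 kept 76, 61 and 92 cells, and Control kept 94. The sums over kept cells held 126157027, 121378632 and 140995697 gene reads in the BCR-ABL sets and 139684338 in Control. Median reads per kept cell were 1649313, 2084608 and 1385349 in the BCR-ABL sets and 1200640 in Control. BCR-ABL replicates 2 and 4 differed from the other sets in sex-linked transcripts: Xist stood at 324, 0 and 0.16 CPM in BCR-ABL replicates 1, 2 and 4 and at 461 CPM in Control, and Ddx3y at 0.08, 58.8 and 69.9 CPM against 0.04 CPM. BCR-ABL replicate 1 is thus the set that matches Control in this respect, and its values can be read on their own below. The transcripts of the sort were present in every set, with Kit at 256, 240.1 and 314 CPM in BCR-ABL cells and 239 CPM in Control cells, and Ly6a, which encodes Sca-1, at 1.63, 3.46 and 3.43 CPM against 1.29 CPM. Fcgr3, a receptor gene of the fcgr gate, stood at 688, 569 and 583 CPM in BCR-ABL cells and 583 CPM in Control cells. Cd34, also a gene of the gate, was lower in each BCR-ABL set, at 146, 180.5 and 158 CPM, than in Control, at 440.1 CPM (log2 fold change -1.43, SE 0.16, adjusted p = 0.594 in edgeR), and its part in the results was not tested. CPM is a gene's reads scaled to the total gene reads of its set or cell, the usual unit of library size. Summed levels carry both the number of cells that hold a transcript and the amount per cell, which the values per cell below take apart as far as depth allows.

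The promoters of the 4 members on which the results turn are shown first, as RefSeq windows (GRCm38.p6, the mm10 assembly) of 250 bases before to 50 bases after a transcript start, 5′ to 3′ on the gene's strand. RefSeq windows were matched for 8 of the 10 members, and the others, Id1 and Egr1, are named only. Gfi1 has 2 such windows, and the other holds neither AATC nor CACCTG. In the Gfi1 window with the most matches (chr5:107725756-107726055, minus strand) the capitals mark an AATC core, the GFI core motif, read on the other strand as GATT at position -200, and a CACCTG, the E-box of ZEB proteins, at position -42.
Gfi1: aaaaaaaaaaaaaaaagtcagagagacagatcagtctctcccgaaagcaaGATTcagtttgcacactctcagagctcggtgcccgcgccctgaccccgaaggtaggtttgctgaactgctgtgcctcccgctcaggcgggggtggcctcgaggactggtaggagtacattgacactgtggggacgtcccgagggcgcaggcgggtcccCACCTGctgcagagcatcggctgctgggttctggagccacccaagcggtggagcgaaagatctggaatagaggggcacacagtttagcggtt
The Gfi1b window (chr2:28621933-28622232, minus strand) holds 4 AATC cores on either strand, at positions -60, -45, -40 and -33, in capitals.
Gfi1b: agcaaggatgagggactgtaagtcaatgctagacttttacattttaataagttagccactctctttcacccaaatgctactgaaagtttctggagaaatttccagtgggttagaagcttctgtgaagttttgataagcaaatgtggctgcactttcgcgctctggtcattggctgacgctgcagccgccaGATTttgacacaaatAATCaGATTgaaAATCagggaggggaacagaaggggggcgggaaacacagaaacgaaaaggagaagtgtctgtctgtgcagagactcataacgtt
The Zeb2 window with the most matches (chr2:45117393-45117692, minus strand) is 1 of 4 for this gene and holds 4 AATC cores, in capitals, and no CACCTG. The other windows of Zeb2 hold 1, 2 and 0 AATC cores.
Zeb2: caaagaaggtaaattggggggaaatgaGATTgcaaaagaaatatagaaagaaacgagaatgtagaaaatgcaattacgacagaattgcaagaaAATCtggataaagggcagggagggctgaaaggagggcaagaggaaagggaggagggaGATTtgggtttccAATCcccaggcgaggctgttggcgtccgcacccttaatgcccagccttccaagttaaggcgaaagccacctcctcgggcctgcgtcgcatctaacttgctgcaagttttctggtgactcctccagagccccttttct
The Id2 window (chr12:25096043-25096342, minus strand) holds 1 E-box of the general form CANNTG, in capitals, at position -196, and an AATC core at position -53, left in lower case.
Id2: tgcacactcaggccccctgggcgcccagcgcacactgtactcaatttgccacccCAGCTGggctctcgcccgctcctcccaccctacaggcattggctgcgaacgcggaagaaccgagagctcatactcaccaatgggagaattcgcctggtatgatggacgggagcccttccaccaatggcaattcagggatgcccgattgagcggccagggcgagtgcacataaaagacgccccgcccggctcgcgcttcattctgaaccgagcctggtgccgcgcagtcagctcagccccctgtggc
Both strands were searched. Of 32817 promoter windows of this length, 73.1% hold an AATC, 20.2% a CACCTG and 72.3% a CANNTG, of which CACCTG is a special case. Matches of such short letters describe the windows and are not binding sites.

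Over all kept cells, Gfi1 and Id2 stood above Control in each BCR-ABL set, and Zeb2 and Gfi1b stood below it in each. The other 6 members had Control inside the range of the BCR-ABL sets. None of the 10 passed the test. Reads were added up within each set, and edgeR's quasi-likelihood test set the 3 BCR-ABL sums beside the Control sum, adjusted by Benjamini-Hochberg over 20324 genes. All 10 members passed the filter on low counts, Gfi1b and Id3 through reads of a few cells each. The test called 0.0% of genes at an adjusted p under 0.05, with a smallest adjusted p of 0.594. At an unadjusted p under 0.05 it held 1459 genes, 7.18% of those tested, and 3 of the 10 members: Gfi1 and Id2 higher (3.79% of genes) and Zeb2 lower (3.39% of genes). DESeq2 on the same sums called 562 genes, 2.77%, and the same 3 members, while limma-voom called 0 genes, with 1659 at an unadjusted p under 0.05. All 3 BCR-ABL sets lay above Control for 2 of 10 members and for 23.2% of genes tested, and below it for 2 of 10 members and 27.8% of genes, so these counts are near the background. The 10 members had a median log2 fold change of 0.11, against 0.05 over all genes tested. The spread that edgeR used comes from the BCR-ABL sets alone, and the condition of the Control set and the set itself cannot be told apart.

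**Figure D1:**
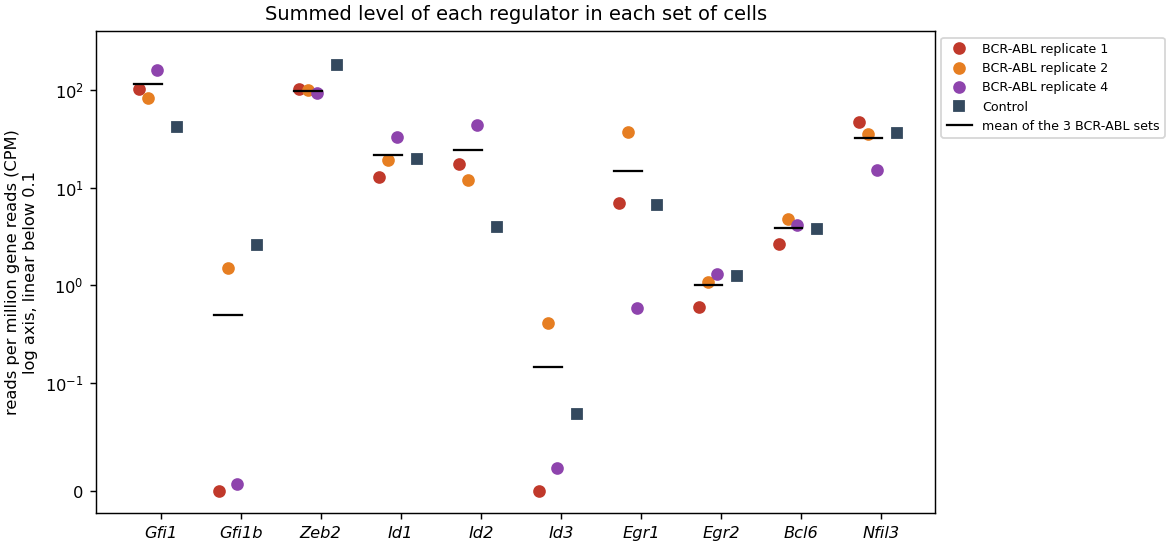
Summed level (CPM, log axis, linear below 0.1) of each of the 10 regulators in the 3 BCR-ABL sets (circles, with their mean as a bar) and in Control (square). Gfi1 lies between 83.5 and 160.3 CPM across the BCR-ABL sets against 41.5 CPM in Control, Zeb2 between 92.5 and 102.8 CPM against 182.3 CPM, and Egr1 spreads from 0.58 to 36.8 CPM among the BCR-ABL sets.

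Gfi1 (ENSMUSG00000029275, mm10 chr5:107716657-107726036, minus strand, protein-coding) had 12996, 10134 and 22608 reads in BCR-ABL replicates 1, 2 and 4 and 5795 reads in Control. In CPM these were 103.0, 83.5 and 160.3 against 41.5, so every BCR-ABL set lay above Control, with replicate 4 highest. The BCR-ABL mean was 116 ± 39.9 CPM (SD, n = 3), and the 3 sets stood at 2.48, 2.01 and 3.87 times Control. The log2 fold change in edgeR was 1.49 (SE 0.42, unadjusted p = 0.0196, adjusted p = 0.646), and DESeq2 gave an adjusted p of 0.00311. The gene overlaps A430072P03Rik, and with no strand setting stated, reads of the 2 cannot be told apart.

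In single cells the Gfi1 difference lay both in how many cells held the transcript and in the level of those that did. Cells were thinned to 674952 reads, which kept 65, 54 and 81 BCR-ABL cells and 90 Control cells. There 1 read equals 1.48 CPM and 10 reads 14.8 CPM. At least 1 Gfi1 read was present in 89.2%, 87.04% and 96.3% of BCR-ABL cells and in 66.7% of Control cells. The exact 95% intervals were 79.1 to 95.6%, 75.1 to 94.6% and 89.6 to 99.2% in the BCR-ABL sets and 55.9 to 76.3% in Control. The lowest bound of BCR-ABL replicate 2 lay just under the upper bound of Control. With at least 10 reads the shares were 73.9%, 64.8% and 93.8% of BCR-ABL cells and 40% of Control cells. The median over all thinned cells was 77, 57 and 131.9 CPM across the BCR-ABL sets and 3.0 CPM in Control, where most cells held few or no reads. Among cells with at least 10 reads the medians were 120.0, 118.5 and 147.4 CPM across the BCR-ABL sets and 79.3 CPM in Control, with quartiles of 64.8 to 202.6, 64.4 to 195.6 and 77.8 to 260.4 CPM against 50 to 155.6 CPM. The quartile ranges of these cells overlap between every BCR-ABL set and Control. Single reads carry little weight here: 25 of 61 wells that failed the limits held Gfi1 reads, 43 in all, and 1 of these wells reached 10. Gfi1 CPM also ran against depth over the cells of each set, with a rho of -0.26, -0.29 and -0.25 in the BCR-ABL sets and -0.27 in Control.

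Markers of both arms differed between the BCR-ABL sets and Control. All 8 monocyte markers stood below Control in each BCR-ABL set, beside 27.8% of genes tested. Their summed level was 5135, 5866 and 4623 CPM in BCR-ABL cells against 7631 CPM in Control cells, and none was at 0. Of the 10 neutrophil markers, which include Gfi1 itself, 7 stood above Control in each set, beside 23.2% of genes tested, and 0 below. Prtn3, Ltf and Ngp had Control inside the range of the BCR-ABL sets. The neutrophil sum was 25517, 24155 and 25930 CPM against 18873 CPM. Most of it was Elane and Prtn3, at 17921 and 6427 CPM in BCR-ABL replicate 1. Most of the monocyte sum was Ly6c2, at 3896 CPM in that set. The part of this shift in the Gfi1, Id2 and Zeb2 values was not tested.

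Gfi1b (ENSMUSG00000026815, chr2:28609450-28621982, minus strand), the erythroid and megakaryocyte relative, was all but silent. It had 0, 181 and 1 reads in BCR-ABL replicates 1, 2 and 4 and 357 reads in Control, which is 0, 1.49 and 0.007 CPM against 2.56 CPM. Its log2 fold change of -2.33 had an SE of 2.86 (edgeR, adjusted p = 0.927) and moved to -9.11 without BCR-ABL replicate 2 and to -7.74 without the top cell of each set. At least 10 reads were present in 4 kept cells, 1 of BCR-ABL replicate 2 and 3 of Control. The BCR-ABL cell held 180 of the 181 reads of its set, and the strongest Control cell 248 reads. In BCR-ABL replicates 1 and 4, 0 of 65 and 0 of 81 thinned cells had a read, which allows shares of up to 4.615% and 3.704%.

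Of the 4 cells with Gfi1b, 3 also held transcripts of other myeloid arms. The BCR-ABL replicate 2 cell had 2756 CPM of Gata2, a factor of early progenitors and mast cells, 3783 CPM of Cpa3, a mast cell protease, 251 CPM of Itga2b, an integrin of megakaryocytes, and 447 CPM of Gata1. A Control cell had 1275 CPM of Gata2, 543 CPM of Cpa3, 655 CPM of Itga2b and 110.2 CPM of Gata1. A second Control cell had 114 CPM of Gata2 and 2348 CPM of Cpa3 with 0 of Gata1. In all of these, Gfi1 was at 1.3 CPM or less and Irf8 at 10.2 CPM or less. The fourth cell, of Control, had 17 Gfi1b reads, none of Gata2, Cpa3 or Itga2b, and 2367 CPM of Irf8. Across all 323 kept cells, Gata2 exceeded 14.8 CPM in 38 (11.8%) and Cpa3 in 43 (13.3%), and 3 of the 38 cells with Gata2 reached 10 Gfi1b reads.

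Zeb2 (ENSMUSG00000026872, chr2:44983632-45117395, minus strand) had 12966, 12256 and 13036 reads in the BCR-ABL sets and 25459 reads in Control. In CPM the BCR-ABL sets stood at 102.8, 101.0 and 92.5, close to each other, and Control at 182.3. The mean was 98.7 ± 5.51 CPM (SD, n = 3), and the sets stood at 0.564, 0.554 and 0.507 times Control. The log2 fold change was -0.86 (SE 0.15, unadjusted p = 0.00337, adjusted p = 0.614 in edgeR), the smallest SE among the members, and DESeq2 gave an adjusted p of 0.00106. Zeb2os and 4 small annotated genes overlap it, and their reads cannot be told apart from those of Zeb2 or may have been set aside as ambiguous.

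Nearly every cell of every set had Zeb2, and the sets differed in its amount. At least 1 read was present in 98.5%, 98.2% and 95.1% of BCR-ABL cells and 98.9% of Control cells. At least 10 reads were present in 87.7%, 87.04% and 80.3% of BCR-ABL cells and 94.4% of Control cells, and the interval of each BCR-ABL set overlaps that of Control (87.5 to 98.2%), which BCR-ABL replicate 4 (69.9 to 88.3%) only just reaches. The median per thinned cell was 94.8, 77.8 and 74.1 CPM across the BCR-ABL sets and 162.2 CPM in Control. Quartiles ran from 45.9 to 140.8, 41.9 to 153.7 and 26.7 to 145.2 CPM across the BCR-ABL sets and from 98.5 to 260.8 CPM in Control. The Control median lay above the upper quartile of each BCR-ABL set, while the ranges of single cells overlap widely. Its relative Zeb1, the other ZEB repressor, ran the other way at a low level: 14.2, 12.1 and 11.97 CPM across the BCR-ABL sets and 6.50 CPM in Control, a log2 fold change of 0.995 (SE 0.32, adjusted p = 0.669 in edgeR). The CtBP co-repressors of ZEB proteins showed no such gap, with log2 fold changes of 0.01 (SE 0.18) for Ctbp1 and -0.13 (SE 0.22) for Ctbp2.

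**Figure D2:**
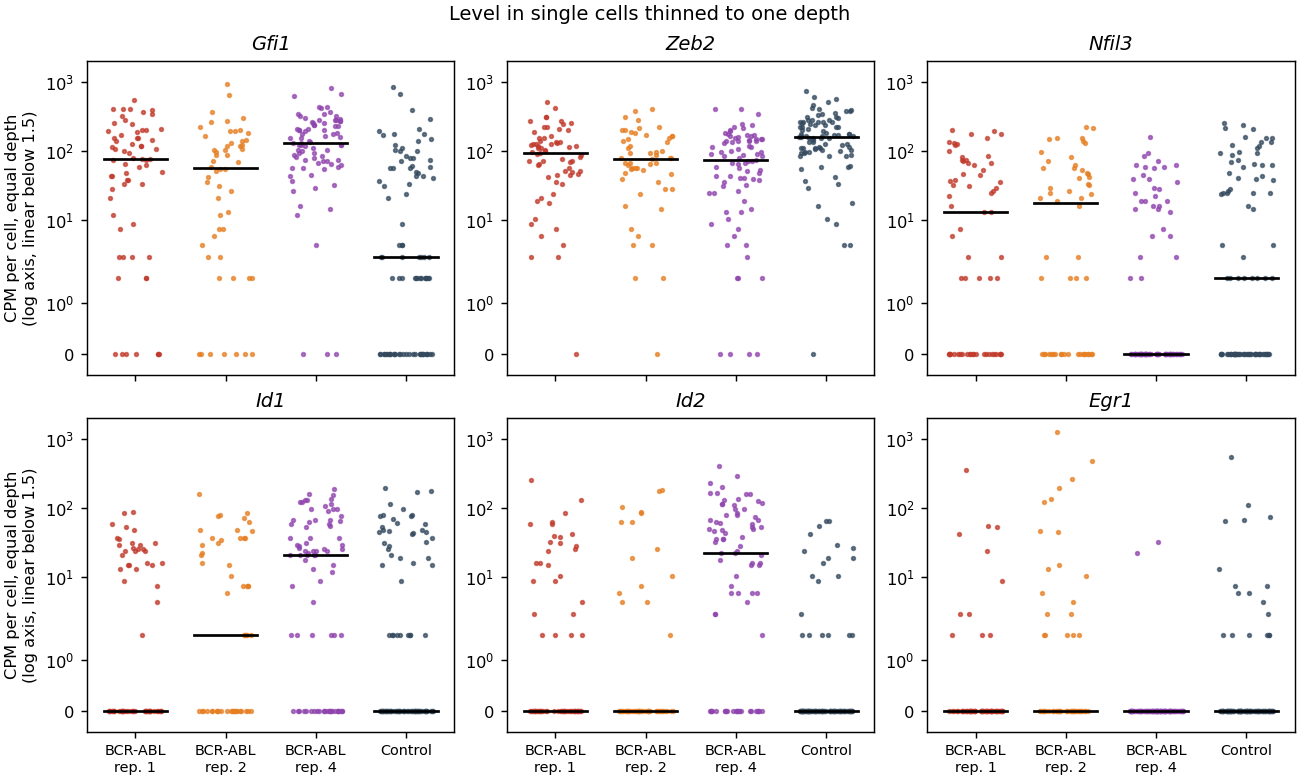
Level per cell (CPM, log axis, linear below 1.5) of 6 regulators in cells thinned to one depth, each point 1 cell and each bar the median of a set, with the BCR-ABL sets left of Control. Most Control cells lie at or near 0 for Gfi1 (median 3.0 CPM), whereas Zeb2 was read in nearly all cells with a higher median in Control (162.2 CPM), and Egr1 is at 0 in most cells of every set.

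Among the ID genes, Id2 showed the gap and Id1 did not. Id2 (ENSMUSG00000020644, chr12:25093799-25097140, minus strand) had 2208, 1465 and 6145 reads in the BCR-ABL sets and 548 in Control. These are 17.5, 12.1 and 43.6 CPM across the BCR-ABL sets and 3.92 CPM in Control, or 4.46, 3.08 and 11.1 times Control. BCR-ABL replicate 4 stood well above the other 2, and the BCR-ABL mean of 24.4 CPM had an SD of 16.8 (n = 3). The log2 fold change was 2.64 (SE 0.91, unadjusted p = 0.0377, adjusted p = 0.669 in edgeR), and DESeq2 gave an adjusted p of 0.00427. In thinned cells at least 10 Id2 reads were present in 26.2%, 16.7% and 59.3% of BCR-ABL cells and 11.1% of Control cells. The intervals of BCR-ABL replicate 1 (16 to 38.5%) and replicate 2 (7.9 to 29.3%) overlap that of Control (5.5 to 19.5%), and that of replicate 4 (47.8 to 70.1%) does not. Among cells with at least 10 reads the median was 38.5, 85.9 and 61.5 CPM across the BCR-ABL sets, from 17, 9 and 48 cells, and 28.2 CPM in Control, from 10 cells. BCR-ABL replicate 4 also stood apart in eosinophil markers, whose sum was 0.571, 5.46 and 1255 CPM across the BCR-ABL sets and 3.77 CPM in Control, and their part in its Id2 level was not tested.

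Id1 (ENSMUSG00000042745, chr2:152736251-152737410, plus strand) stood at 12.8, 19.4 and 33.1 CPM across the BCR-ABL sets and 19.7 CPM in Control, so that Control lay inside their range. Its log2 fold change was 0.16 (SE 0.55, adjusted p = 0.987 in edgeR), and a p above the threshold does not show equal levels. At least 1 Id1 read was present in 44.6%, 57.4% and 70.4% of BCR-ABL cells and 45.6% of Control cells, and BCR-ABL replicate 4 was again the highest. Id3 (ENSMUSG00000007872, chr4:136143497-136145755, plus strand) was at the limit of detection. It had 0, 50 and 3 reads in the BCR-ABL sets, the 50 in 1 cell, and 10 reads in 1 Control cell. After thinning, 0 of 65, 1 of 54 and 0 of 81 BCR-ABL cells and 0 of 90 Control cells had an Id3 read, and a count of 0 allows up to 4.615%, 3.704% and 3.333% in these sets of 65, 81 and 90 cells. The relative Id4 had 0, 1 and 1 reads in the BCR-ABL sets and 1 in Control and was not tested.

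The E proteins that ID proteins hold off DNA were read in every set. Of the 5 relatives and partners tested, 0 passed the test. An unadjusted p under 0.05 in edgeR was found for 1, Tcf4, on the lower side, beside 3.39% of genes tested. Tcf4, the E protein of plasmacytoid dendritic cells, stood at 33.3, 36.003 and 30.7 CPM across the BCR-ABL sets and 60.7 CPM in Control, a log2 fold change of -0.84 (SE 0.19, adjusted p = 0.624 in edgeR). Tcf3, which encodes E12 and E47, stood at 76.8, 93.3 and 91.8 CPM against 89.6 CPM, and Tcf12 at 40.7, 35.8 and 34.4 CPM against 47.1 CPM. BMP signals drive Id genes through SMAD proteins, and 8 genes of that route were tested, of which 0 passed. The log2 fold change was positive for 4 and negative for 4, and Smad5 and Smad7 stood above Control in each BCR-ABL set. An unadjusted p under 0.05 in edgeR was found for 2, both lower, beside 3.39% of genes tested. These were Smad4, the shared co-SMAD, at 19.2, 19.3 and 20.3 CPM across the BCR-ABL sets and 33.003 CPM in Control, and Smad6, an inhibitory SMAD, at 1.07, 1.19 and 1.16 CPM against 2.97 CPM.

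Egr1 (ENSMUSG00000038418, chr18:34859823-34864984, plus strand) varied more among the BCR-ABL sets than between them and Control. It had 885, 4472 and 82 reads in BCR-ABL replicates 1, 2 and 4 and 928 reads in Control, which is 7.02, 36.8 and 0.58 CPM against 6.64 CPM. Single cells carried the sums: the strongest cell held 55.3%, 39.6% and 70.7% of the Egr1 reads of the BCR-ABL sets and 47.0% of those of Control. The log2 fold change of 1.18 (SE 2.11, adjusted p = 0.967 in edgeR) turned to -0.77 without BCR-ABL replicate 2. At least 1 read was present in 16.9%, 37.04% and 2.5% of thinned BCR-ABL cells and 20.0% of Control cells. At 1 read the intervals of BCR-ABL replicate 2 (24.3 to 51.3%) and replicate 4 (0.3 to 8.6%) do not overlap each other. With at least 10 reads the shares were 7.7%, 16.7% and 2.5% of BCR-ABL cells and 5.6% of Control cells. There the intervals of replicate 2 (7.9 to 29.3%) and replicate 4 (0.3 to 8.6%) overlap.

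The low Egr1 of BCR-ABL replicate 4 went with low levels of other immediate-early genes, which growth factors and cell handling induce within minutes. Fos stood at 697, 849 and 164 CPM in BCR-ABL replicates 1, 2 and 4 and 582 CPM in Control, and Dusp1, a phosphatase that shuts MAP kinases off, at 405, 396 and 77.8 CPM against 171 CPM. Of 13 such genes tested, 12 had their lowest level of the 4 sets in BCR-ABL replicate 4, as had 24.1% of all genes tested. In the comparison of conditions 0 of the 13 passed and 0 had an unadjusted p under 0.05 in edgeR, with a median log2 fold change of -0.02. Srf, which drives Egr1 and Fos, stood at 21.4, 22.4 and 21.7 CPM across the BCR-ABL sets and 14.99 CPM in Control, a log2 fold change of 0.56 (SE 0.23, adjusted p = 0.71 in edgeR).

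**Figure D3:**
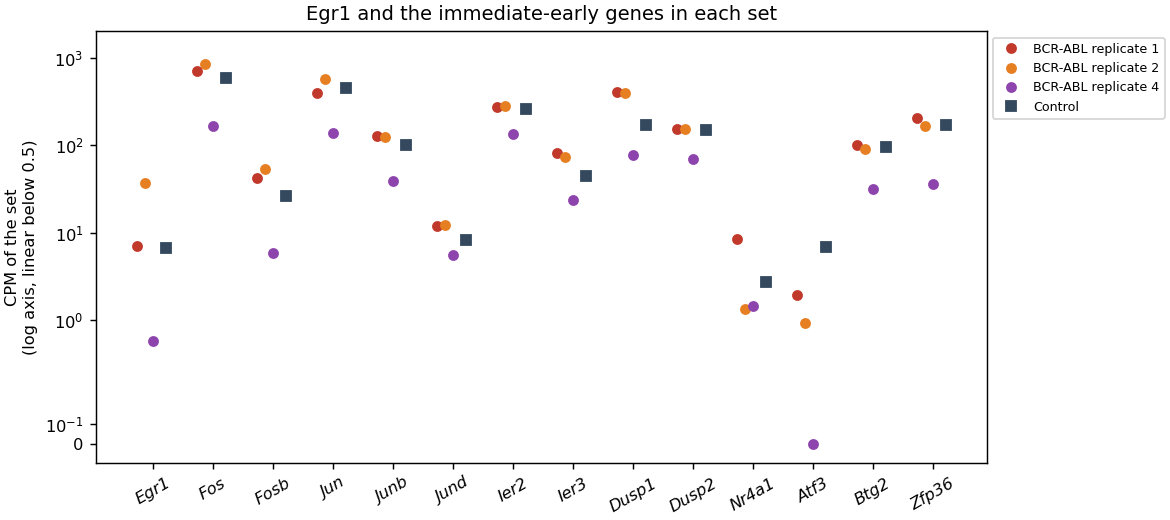
Summed level (CPM, log axis, linear below 0.5) of Egr1 and 13 immediate-early genes in the 3 BCR-ABL sets (circles) and in Control (square). BCR-ABL replicate 4 is the lowest of the 4 sets for Egr1 (0.58 CPM) and for 12 of the 13 other genes.

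Of all kept cells, 30 had at least 10 Egr1 reads, and 8 of them had Gata2 above 14.8 CPM and 8 had Cpa3 above it. The strongest Egr1 cell of BCR-ABL replicate 2, at 1240 CPM, also had 3435 CPM of Cpa3, 292 CPM of Gata2 and 5155 CPM of Fos. Its next strongest, at 484 CPM, was the cell with Gfi1b described above, and the strongest Control cell, at 559 CPM, was the Control cell with Gfi1b and Gata1. In thinned cells, Egr1 cells of BCR-ABL replicate 2 numbered 9 with at least 10 reads, 3 of them with at least 10 Gata2 reads, against 0 of the 45 other cells of that set. In BCR-ABL replicate 1 it was 0 of 5 cells, against 7 of 60, in replicate 4 it was 2 of 2, against 8 of 79, and in Control it was 2 of 5, against 15 of 85. The median Fos level was 1008, 1734 and 87.4 CPM in the Egr1 cells of the BCR-ABL sets, against 456, 399 and 60.7 CPM in their other cells, and 1267 CPM in the Egr1 cells of Control, against 236 CPM in its other cells.

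Egr2 (ENSMUSG00000037868, chr10:67535475-67542188, plus strand) was scarce, with 76, 132 and 184 reads in the BCR-ABL sets and 172 in Control, or 0.60, 1.09 and 1.31 CPM against 1.23 CPM. At least 10 reads were present in 10 kept cells, 1, 2 and 5 of the BCR-ABL sets and 2 of Control. The strongest cell held 97.4%, 89.4% and 47.3% of the Egr2 reads of the BCR-ABL sets and 89.5% of those of Control, and its log2 fold change was -0.29 (SE 0.73). Egr1 was at 2.4 CPM or less in all 10 cells with Egr2. In thinned cells at 10 reads, the product of the separate shares was 0.1%, 0.3% and 0.1% in BCR-ABL sets and 0.1% in Control. The lack of shared cells is thus near what the separate shares give. Egr3 and Egr4 had at most 3 reads per set and were not tested. Of the EGR co-repressors, Nab1 stood at 23.6, 17.5 and 25.4 CPM across the BCR-ABL sets and 23.2 CPM in Control, and Nab2 at 1.83, 0.44 and 2.38 CPM against 0.91 CPM.

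Bcl6 (ENSMUSG00000022508, chr16:23965052-23988852, minus strand) was read at a low level, with Control inside the range of the BCR-ABL sets. It stood at 2.67, 4.75 and 4.18 CPM across the BCR-ABL sets and 3.76 CPM in Control, with a log2 fold change of 0.06 (SE 0.50). The share of thinned cells with at least 1 read was 35.4%, 44.4% and 37.04% in the BCR-ABL sets and 25.6% in Control, but with at least 10 reads it was 3.1%, 14.8% and 9.9% against 7.8%, with Control inside the range. A share of 1 read, at 1.48 CPM, is too near the limit to order the sets. Gm37419 overlaps Bcl6. Of its co-repressors, the log2 fold change was -0.53 for Bcor (SE 0.24) and 0.10 for Ncor1 (SE 0.14), and the relative Bcl6b had at most 1 read per BCR-ABL set and 29 in Control, so its unadjusted p of 0.0348 in edgeR (adjusted p = 0.669) rests on almost no reads.

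Nfil3 (ENSMUSG00000056749, chr13:52967209-52981073, minus strand) stood at 46.9, 35.1 and 15.1 CPM across the BCR-ABL sets and 36.05 CPM in Control, so that replicate 4 was low and the other sets lay around Control. Its log2 fold change was -0.13 (SE 0.66, adjusted p = 0.994 in edgeR), and 0.22 without BCR-ABL replicate 4. At least 10 reads were present in 47.7%, 51.9% and 29.6% of BCR-ABL cells and 40% of Control cells, with intervals that overlap for every BCR-ABL set and Control. Dbp, a clock output factor that shares NFIL3 sites as an activator, stood at 1.34, 1.01 and 3.21 CPM across the BCR-ABL sets and 7.95 CPM in Control, a log2 fold change of -2.09 (SE 0.71, unadjusted p = 0.0371, adjusted p = 0.669 in edgeR). Its relatives Tef, at 8.03, 1.19 and 8.04 CPM against 5.85 CPM, and Hlf, at 4.68, 6.78 and 8.93 CPM against 3.79 CPM, had unadjusted p-values above 0.05.

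Per kilobase of exon, Gfi1 was the most abundant of the 10 in BCR-ABL cells, at 36.3 CPM per kb, followed by Id1 (18.8), Nfil3 (16), Id2 (10), Zeb2 (4.95), Egr1 (3.30), Bcl6 (0.58), Egr2 (0.29), Gfi1b (0.27) and Id3 (0.08). In Control cells the order of level was Nfil3 (17.8 CPM per kb), Id1 (17), Gfi1 (13), Zeb2 (9.14), Id2 (1.61), Egr1 (1.48), Gfi1b (1.40), Bcl6 (0.56), Egr2 (0.36) and Id3 (0.04). Exon lengths are unions over all annotated transcripts, 19.94 kb for Zeb2, so its level per kb is understated where shorter transcripts are used. Neighbours such as Id1 and Nfil3 did not differ beyond the spread of the BCR-ABL sets, whose CPM ran from 12.8 to 33.1 and from 15.1 to 46.9.

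**Figure D4:**
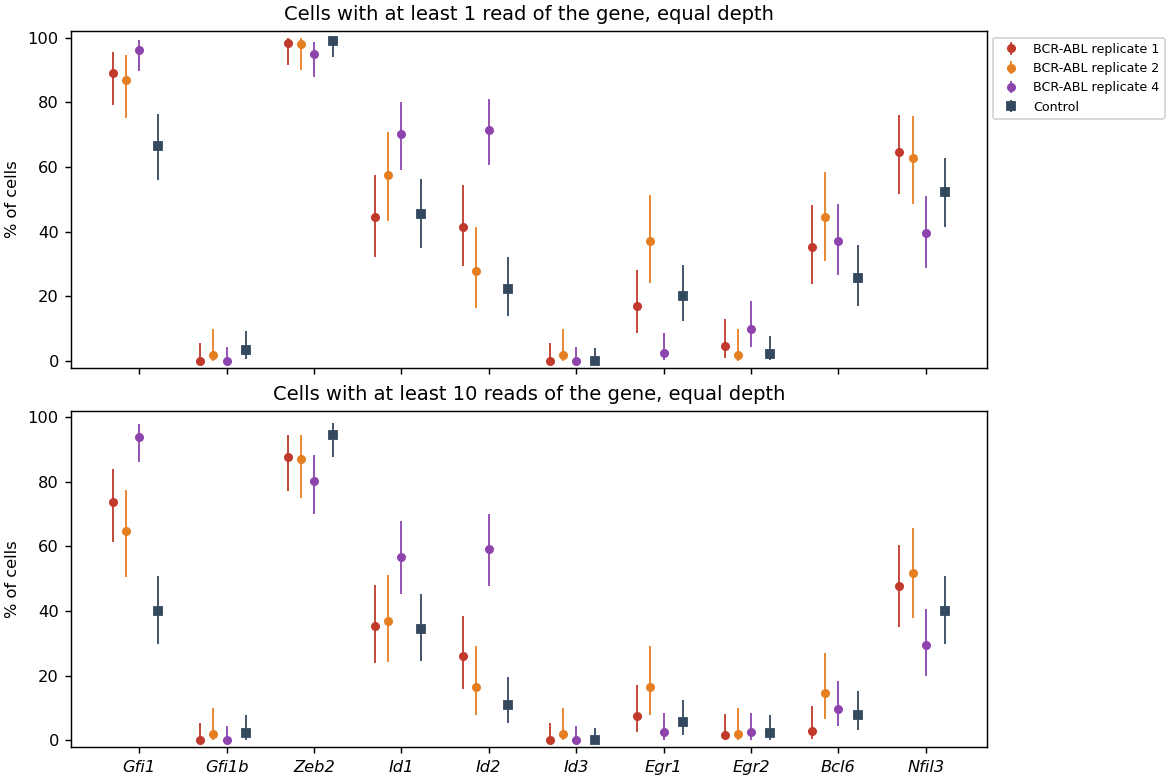
Share of thinned cells (in %, with exact 95% intervals) with at least 1 read (upper panel) and at least 10 reads (lower panel) of each regulator, BCR-ABL sets left of Control. Gfi1 was read at 10 or more in 64.8 to 93.8% of BCR-ABL cells, compared with 40% of Control cells, and Gfi1b, Id3 and Egr2 in few cells of any set.

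In the share of cells with at least 1 read, 5 of 10 members had all 3 BCR-ABL sets on one side of Control (Gfi1, Id2 and Bcl6 above, Zeb2 and Gfi1b below), beside 40.3% of all genes with a read. With at least 10 reads it was again 5 members (Gfi1, Id1 and Id2 above, Zeb2 and Gfi1b below), beside 28.6% of genes. Above Control were 3 of 10 members in both cases, beside 22.1% and 17.1% of genes, and below it 2 of 10, beside 18.2% and 11.5%. Some of these sides rest on few cells or small gaps. At 10 reads Gfi1b was in 0, 1 and 0 BCR-ABL cells and 2 Control cells. Id1 was in 35.4% of cells of BCR-ABL replicate 1 and 34.4% of Control cells, and Zeb2 at 1 read in 98.5% and 98.9%. The background counts every gene with a thinned read, and genes with no cell at 10 reads cannot take a side there. It is thus not matched to the members in level. One Control set against 3 BCR-ABL sets can give no exact permutation p below 0.25.

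Relations between members were computed from cell to cell within each set. Of 45 pairs, 28 could be computed in all 4 sets, since Gfi1b and Id3 were read in too few cells, and 0 had a Spearman rho of one sign and at least 0.2 in size in every set. Among all pairs of genes that vary in each set, 0.096% met that limit, and among pairs of 8361 genes read in at least 25% of the cells of each set 0.188%, so 0 of 28 is near the background. Single rho values ran from -0.284 to 0.296. The highest mean was that of Egr1 and Nfil3, with a rho of 0.13, 0.201 and 0.242 over the cells of the BCR-ABL sets and 0.148 in Control. Gfi1 and Id2, the pair that stood above Control together, had 0.082, 0.139 and 0.241 in the BCR-ABL sets and 0.145 in Control. Gfi1 and Zeb2 had 0.1, 0.167 and 0.188 against 0.044.

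Gfi1 and Zeb2 shared cells about as often as their separate shares give, which says little about their relation. Zeb2 had at least 10 reads in 87.7%, 87.04% and 80.3% of BCR-ABL cells and 94.4% of Control cells. The shared portion was therefore held close to the Gfi1 share in advance. At least 10 reads of both genes occurred in 66.2%, 55.6% and 75.3% of BCR-ABL cells and 38.9% of Control cells, where the product of the separate shares was 64.8%, 56.4% and 75.3% in the BCR-ABL sets and 37.8% in Control. Gfi1 and Id2 were together in 23.1%, 11.1% and 54.3% of BCR-ABL cells and 7.8% of Control cells, with products of 19.3%, 10.8% and 55.6% against 4.4%. Id1 and Id2 were together in 12.3%, 7.4% and 34.6% of BCR-ABL cells and 3.3% of Control cells, with products of 9.3%, 6.2% and 33.7% against 3.8%. Each observed share lay within 4 percentage points of its product, which is wide beside the smaller products. Of the cells with Id2, 15, 6 and 44 of the BCR-ABL sets also had Gfi1, and 2, 3 and 4 did not. In Control it was 7 and 3. Whether Gfi1 and Id2 shared cells more often than their separate shares give was not tested.

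Relations with other genes were sought among 69 genes of the related lists, the sort and the marker lists. Of 488 pairs that could be computed in all sets, 2 met the limit, both of Gfi1. This compares with 0.188% of pairs among the 8361 genes above and 0.096% among all genes that vary in each set. Some of the 488 pairs, such as those of Egr2, hold genes read in fewer cells than the 8361. These 69 genes were chosen for their links to the members, so the count is a description. Gfi1 ran with Cebpe, the factor of granulocyte maturation, at a rho of 0.559, 0.562 and 0.488 in the BCR-ABL sets and 0.278 in Control. It ran with Elane, neutrophil elastase, at 0.573, 0.542 and 0.305 in the BCR-ABL sets and 0.239 in Control. Against Irf8, the monocyte and dendritic factor, it stood at -0.504, -0.483 and -0.173 in the BCR-ABL sets and at -0.266 in Control. Summed Irf8 was 259, 421 and 62.4 CPM in these sets and 990.04 CPM in Control. With Myb, a factor of proliferating progenitors, it stood at 0.46, 0.479 and 0.164 in the BCR-ABL sets and 0.416 in Control. With Cd34 it stood at -0.462, -0.328 and -0.224 in the BCR-ABL sets and -0.006 in Control. Whether such values differ between the conditions was not tested, and all points of a set share their set and its depth limit.

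For Zeb2, no pair met the limit. With Csf1r, the receptor of macrophage colony-stimulating factor, its rho was 0.163, 0.401 and 0.053 in the BCR-ABL sets and 0.278 in Control, and with Irf8 0.212, 0.21 and -0.035 against 0.196. Nfil3 stood at 0.219, 0.101 and 0.108 with Csf1r in the BCR-ABL sets and 0.449 in Control, and at -0.259, -0.3 and -0.061 with Elane against -0.114. Id2 ran with Elane at 0.067, 0.266 and 0.375 in the BCR-ABL sets and 0.221 in Control. In BCR-ABL replicate 4, where Id2 was most frequent, it also ran with Cebpe (0.347), as it did in replicate 2 (0.325), but not in replicate 1 (-0.096) or Control (-0.123). Egr1 ran with Fos at 0.205, 0.412 and 0.041 in the BCR-ABL sets and 0.301 in Control.

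**Figure D5:**
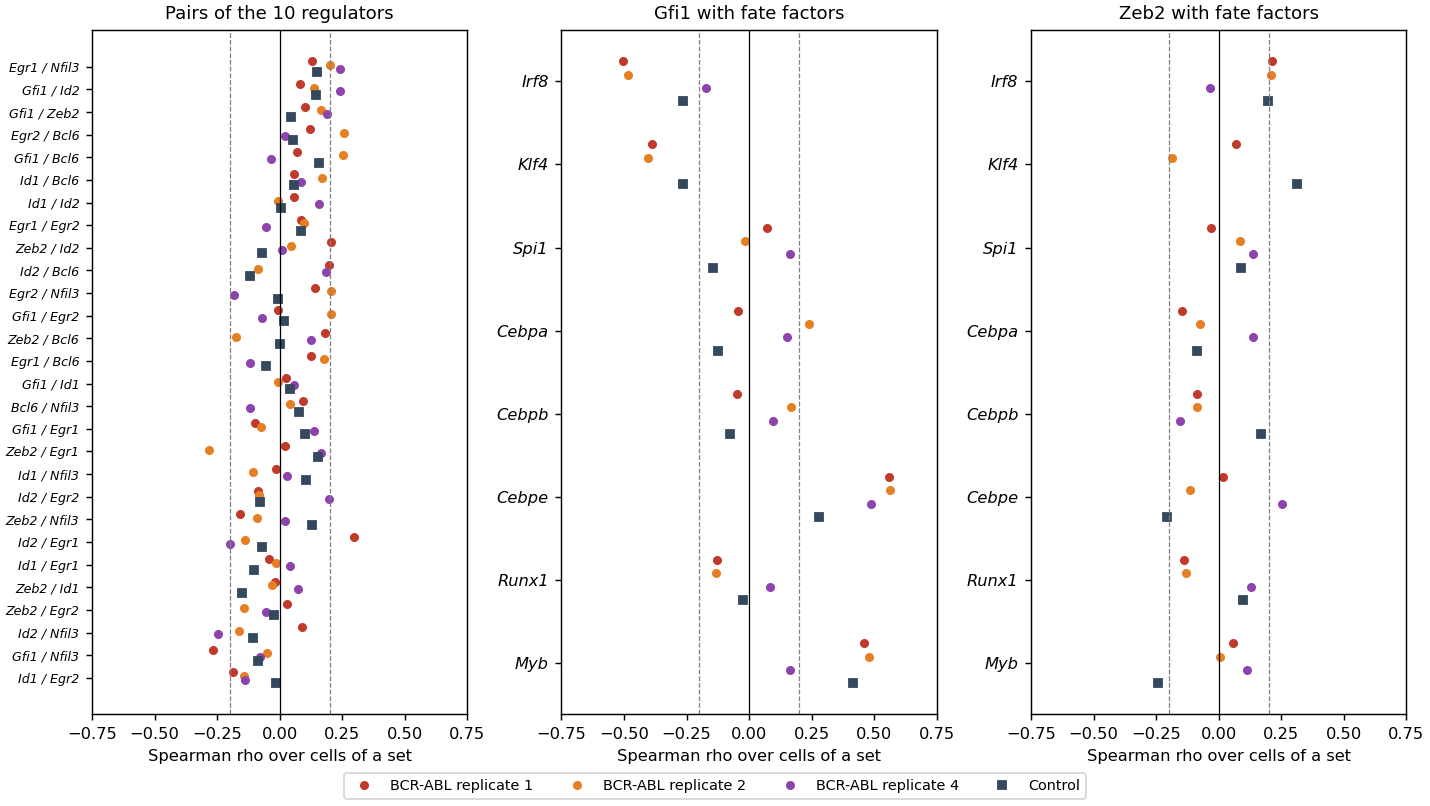
Spearman rho over thinned cells of each set, for the 28 pairs of regulators that could be computed in all sets (left), for Gfi1 with 8 myeloid fate factors (middle) and for Zeb2 with the same factors (right), circles for BCR-ABL sets and squares for Control, dashed lines at 0.2 and -0.2. Member pairs cluster about 0, whereas Gfi1 with Cebpe lies to the right in all 4 sets and Gfi1 with Irf8 to the left (-0.504 to -0.173).

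The genes most like each member were the 3 with the highest mean rho over the 4 sets among 8361 protein-coding genes, named where that mean reached 0.3. For Gfi1 they were Cebpe (0.472), Cd63, a tetraspanin of granule membranes (0.44), and Rab44, a large RAB protein (0.434). The values by which Cd63 was chosen were 0.517, 0.449 and 0.41 in the BCR-ABL sets and 0.386 in Control. For Id2 it was S100a8, a calprotectin subunit of myeloid cells (0.302), with 0.066, 0.404 and 0.567 in the BCR-ABL sets and 0.171 in Control. For Nfil3 it was Ass1, an enzyme of arginine synthesis (0.328), with 0.398, 0.379 and 0.235 in the BCR-ABL sets and 0.298 in Control. Zeb2, Id1, Egr1, Egr2 and Bcl6 had no gene at that level, and their highest means were 0.283, 0.255, 0.244, 0.226 and 0.262.

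The partners of GFI1 in repression were read in every set. Of 7 co-repressor genes tested, 0 passed and 0 had an unadjusted p under 0.05 in edgeR, with a median log2 fold change of -0.02 against 0.05 over all genes. Kdm1a, which encodes the demethylase LSD1, stood at 33.3, 24.99 and 27.6 CPM across the BCR-ABL sets and 29.5 CPM in Control, and Rcor1, its CoREST scaffold, at 55.3, 46.6 and 63.1 CPM against 68.3 CPM. Of 8 fate partners, 1, Cebpe, had an unadjusted p under 0.05, at 56.6, 54.5 and 73.3 CPM across the BCR-ABL sets and 29.2 CPM in Control (log2 fold change 1.09, adjusted p = 0.624 in edgeR). Spi1, the PU.1 gene that both arms need, stood at 405, 431 and 427 CPM across the BCR-ABL sets and 429 CPM in Control.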

How the data were processed

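RNA of single sorted GMPs was read with SMART-seq2 and Nextera XT libraries. The authors deposited raw counts for every Ensembl gene in every well, without normalisation. The authors used GSNAP, HTSeq 0.5.3p3 and mm10, per the submitters' processing notes, with annotation release and strand setting not given in the sources used here. Symbols matched 45143 of 46078 gene rows. Of all reads, 44.9% lay on genes, and spike-in (0.26%), unaligned (40.9%), ambiguous (6.2%) and feature-free (7.7%) reads stayed out of sizes and tests. Kept cells had 50434 to 4758711 gene reads. No 2 kept wells were identical, and no doublet caller was run. Reads carry no molecular identifiers, so exact (Clopper-Pearson) 95% intervals and limits from a count of 0 (3 counts) cover counting error only.

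Cells are not replicates, so counts were summed per set and tested with edgeR 4.0.16 (quasi-likelihood, TMM, filterByExpr) in R 4.3.3, threshold 0.05. With 2 residual degrees of freedom, all from BCR-ABL sets, the single Control sum is taken to have their spread. SE values with edgeR are the size of the log2 fold change divided by the square root of the test's F statistic, not fitted standard errors. The labels do not say whether sets are separate animals, so p-values measure only the spread between these sets, which may be technical. Alternatives were RLE factors, no filter, DESeq2 1.42.0, limma-voom 3.58.1, stricter cell limits (200000 reads, 4000 genes), thinned sums, each gene's top cell left out, each BCR-ABL set left out, thinning to 300000 reads, 10 reads in place of 1, no thinning and Pearson correlation. Shares and Spearman rho used cells thinned to 674952 reads, the 10 percentile, which left out 33 cells. Scripts were tested on simulated data. Members, lists and tests were chosen with earlier results of these data known. The rule for named genes takes all members, listed relatives and, per member, up to 3 genes with the highest mean rho.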

Additional observations from a re-analysis of the deposited data

How the results depend on the processing

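With DESeq2 in place of edgeR, 3 members (Gfi1, Zeb2 and Id2) and 562 genes were called, where edgeR called 0 of each, and the cause was not tested. Each of the other alternatives called 0 members and 0 genes. Without BCR-ABL replicates 1, 2 or 4 in turn, the log2 fold change ran from 1.20 to 1.68 for Gfi1, from -0.91 to -0.81 for Zeb2 and from 1.95 to 2.97 for Id2, which held their direction under every alternative run. It crossed 0 for Egr1 (-0.77 to 1.75), Id1 (-0.26 to 0.42), Bcl6 (-0.12 to 0.26) and Nfil3 (-0.51 to 0.22). With limma-voom it turned for Id3 (-1.14) and Egr1 (-0.40), and for Egr2 with thinned cells summed (0.38) and without each set's top cell (1.07). The count of members with every BCR-ABL share on one side of Control was 5, and 5 to 7 under the alternatives. Leaving out a BCR-ABL set can only keep or raise this count, so those runs do not check it. The limit of rho was met by 0 member pairs under each alternative. Of 98 recomputed log2 fold changes, 87 kept their direction and side of the threshold. No paired analysis was possible because Control is 1 set. Without thinning, Gfi1b had a read in 0, 2 and 1 cells of the BCR-ABL sets and 4 of Control, and Id3 in 0, 1 and 1 against 1.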
